A study of Mus musculus with 2 samples.

Results

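The 35 genes described here encode subunits of respiratory chain complexes II, III and IV, cytochrome c and the ATP synthase (complex V). They were chosen by gene name from the 19938 genes that the arrays measured under 1 gene symbol, and they comprise Sdha to Sdhd of complex II, 9 genes of complex III (the Uqcr genes and Cyc1), Cycs, 4 genes of complex IV (Cox5a, Cox5b, Cox6c and Cox7b) and 17 Atp5 genes. Cox7c belongs to the same family but was read only by probe sets shared with another gene, complex IV subunits with tissue isoforms were set apart, and subunits encoded in mitochondrial DNA were not analysed here. All 35, each read from its brightest probe set, lay on or above the expression floor. This floor, an intensity of 196.9, is the median over named probe sets and not a detection limit.

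The tissue was inguinal white fat, a subcutaneous depot of the groin, and the series is titled for its browning. One group, called DKO, carried null alleles of both Ucp1 and ApoE (Ucp1-/-;ApoE-/-), and the other, called ApoE-KO, carried the null ApoE alleles alone (ApoE-/-), so both groups lacked apolipoprotein E and neither was a wild type. The mice were male littermates on a C57BL/6J background, housed at 23 °C. At 9 weeks of age they went onto a high-fat diet, which lasted 9 weeks. RNA of 3 mice per genotype was mixed and hybridised to 1 Affymetrix array, so the data are 2 arrays, 1 per genotype. Nothing in the data measures how mice of one genotype vary, so every difference below lacks a replicate check and is given without a test.

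The respiratory chain passes electrons from NADH and succinate to oxygen and uses the energy to pump protons across the inner mitochondrial membrane. Complex II (succinate dehydrogenase) takes electrons from succinate, complex III passes them from ubiquinol to cytochrome c, complex IV (cytochrome c oxidase) hands them to oxygen, and the ATP synthase lets the protons back in to make ATP. Brown and beige adipocytes are rich in mitochondria and let protons return through UCP1 as heat, and brown fat of mice is known for much respiratory chain with little ATP synthase for its amount.

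The labels were checked on the targeted genes. The Ucp1 probe set read 2229.9 in the DKO-labelled array and 219 in the ApoE-KO-labelled array, a log2 difference of 3.35, which goes against the labels if it lies in the deleted part of the gene. The sources used here do not place its probes. Arrays are therefore named by their labels, and each direction rests on them. Apoe read 502 and 589 in the arrays labelled DKO and ApoE-KO, above the floor in both. Both groups carried the null ApoE alleles and the probes of Apoe are not placed either, so this reading does not check the labels. As a check of fat as the tissue, though not of the depot, all 11 mature adipocyte markers were above the floor. Among them was Adipoq (6164 in the DKO-labelled array and 6714 in the ApoE-KO-labelled array). The 11 differed by -0.12 to 0.47 on the log2 scale with a median of 0.06.

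The subunit genes were higher in the DKO-labelled array almost without exception. The difference was positive for 34 of 35 genes, at least 2-fold for 18, and 0 were at least 2-fold lower. Among all 9891 genes on or above the floor, 48.2% were higher by any amount, 2.79% were at least 2-fold higher and 0.698% at least 2-fold lower. The median log2 difference of the 35 genes was 1.01, from -0.50 (Atp5g1) to 1.72 (Cycs), against a median of -0.01 over all genes above the floor. In bulk tissue, more cells of a type and more RNA per cell cannot be told apart.

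**Figure D1:**
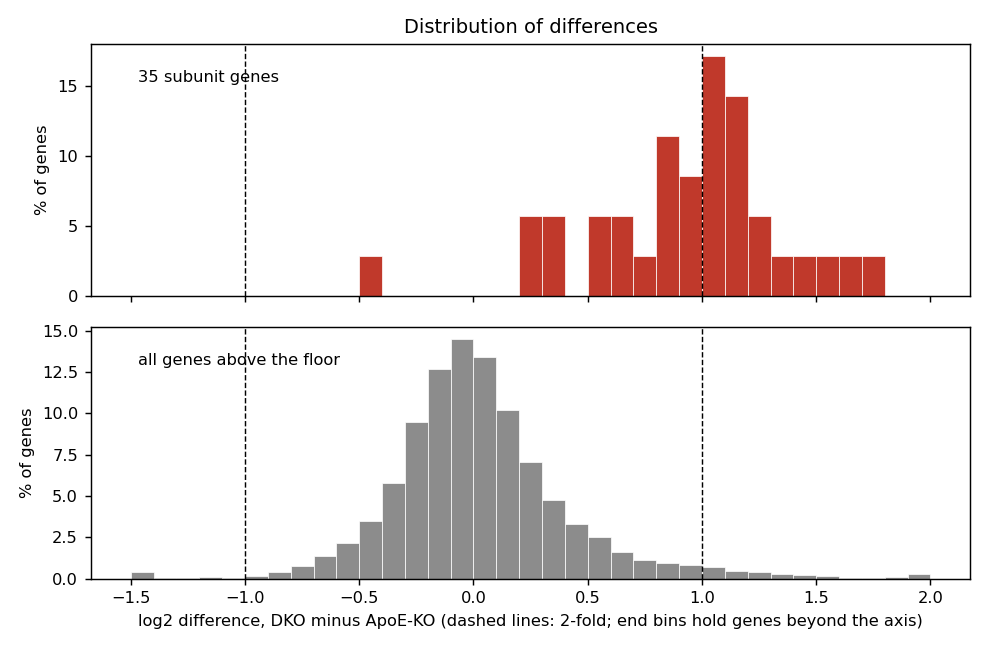
Share of genes (vertical axes, %) by log2 difference between the arrays labelled DKO and ApoE-KO (horizontal axis, bins of 0.1), for the 35 subunit genes (top) and for all 9891 genes on or above the floor (bottom). The subunit genes gather around their median of 1.01, while all genes gather around -0.01, and the lone bar left of 0 in the top panel is Atp5g1.

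The 35 genes did not differ by the same amount, and the electron-transferring complexes stood higher than the ATP synthase. Over the 18 genes of complexes II, III and IV and cytochrome c the median was 1.11, with 12 at least 2-fold higher. Over the 17 ATP synthase genes the median was 0.66, with 6 at least 2-fold higher. The middle 90% of all genes above the floor lay between -0.52 and 0.76, and 26 of the 35 members lay above it, including all 18 of the electron-transferring group. The 9 inside it were all ATP synthase genes. This split is narrow, since Uqcr11 of complex III lay only just above the band, at 0.764 against an edge of 0.763. Some genes outside the 35 that are named for complex IV also lay inside the band. Among them were Cox7c by its shared probe sets (0.60 to 0.62) and the set-apart Cox8a (0.54) and Cox7a2l (0.15), the last placed there by name alone. Several assembly genes with Cox names, and isoform genes below the floor, lay inside the band too. These medians were set side by side with no test between them.

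**Figure D2:**
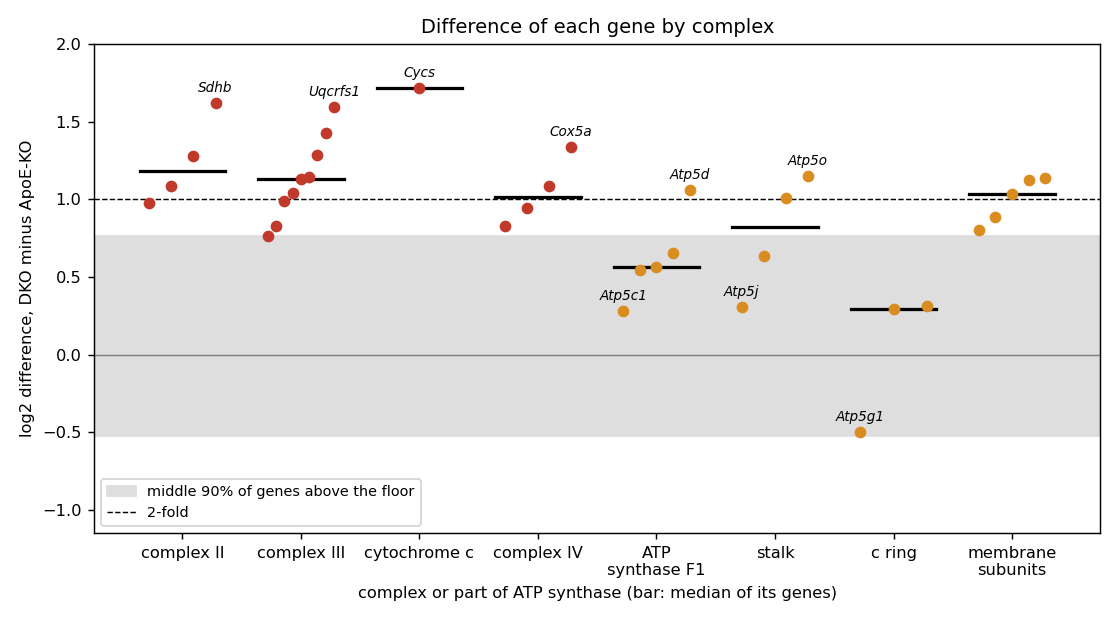
Log2 difference, DKO-labelled array minus ApoE-KO-labelled array (vertical axis), of each of the 35 genes, by complex or by part of the ATP synthase (horizontal axis). Black bars are medians, the grey band is the middle 90% of all genes above the floor (-0.52 to 0.76), and the dashed line is 2-fold. The 18 genes plotted for complexes II, III and IV and cytochrome c lie above the band, which leaves out Cox7c (0.60 to 0.62, inside it), whereas the F1 part, the stalk and the c ring reach into it. Uqcr11 of complex III lies only just above the edge (0.764 against 0.763).

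Complex II is the enzyme shared by the chain and the tricarboxylic acid cycle, and all 4 of its genes were higher, with a median of 1.18. Sdhb, which encodes the iron-sulfur subunit that carries electrons onward, had an intensity of 1285 in the DKO-labelled array and 419 in the ApoE-KO-labelled array, a 3.07-fold difference. Sdhd, a membrane anchor of the enzyme, read 1209 in the DKO-labelled array and 497 in the ApoE-KO-labelled array (2.43-fold). Sdha, the flavoprotein that oxidises succinate, read 5780.3 and 2723 in the arrays labelled DKO and ApoE-KO (2.12-fold). Sdhc, the other anchor, came just short of 2-fold, with 2610.4 in the DKO-labelled array and 1329.7 in the ApoE-KO-labelled array. The catalytic iron-sulfur gene thus had the largest difference of the complex and an anchor gene the smallest.

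Complex III had a median of 1.13 over 9 genes, 6 of them at least 2-fold higher. The gene with the largest difference was Uqcrfs1, encoding the Rieske iron-sulfur protein that moves electrons to cytochrome c1, with 1408 in the DKO-labelled array and 467 in the ApoE-KO-labelled array (3.02-fold). Uqcrq, a small accessory subunit, read 1091 in the DKO-labelled array against 406 in the ApoE-KO-labelled array (2.69-fold). The core proteins followed at 2.44-fold for Uqcrc1 and 2.06-fold for Uqcrc2, which read 7371 in the DKO-labelled array and 3580.3 in the ApoE-KO-labelled array. Cyc1, the haem protein cytochrome c1, was 2.21-fold higher and Uqcrb, a subunit near the quinone site, 2.19-fold higher. The genes under 2-fold were the small accessory subunits Uqcr10 (1.99-fold), Uqcrh (1.77-fold) and Uqcr11 (1.70-fold).

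Cytochrome c, the soluble carrier between complexes III and IV, had the largest difference of the 35 genes as read from its brightest probe set. Cycs read 4868 in the DKO-labelled array and 1481 in the ApoE-KO-labelled array, a 3.29-fold difference that ranked 44 among the 9891 genes above the floor. A further probe set of the gene gave 4405 in the DKO-labelled array and 1324 in the ApoE-KO-labelled array (1.73 on the log2 scale), and a dim one gave 207 in the DKO-labelled array and 96.3, under the floor, in the ApoE-KO-labelled array (1.10). The size for Cycs therefore rests on which probe set is read, while its direction was the same in all 3. RefSeq lists pseudogenes named after Cycs. Without probe positions it is not known which of these probe sets reads the gene itself, so its first rank is uncertain. As the mean of its probe sets it stood at 1.52, below Sdhb (1.62) and Uqcrfs1 (1.59). Cyct, the cytochrome c of male germ cells, was dim in both arrays (22.3 in the DKO-labelled array and 23.5 in the ApoE-KO-labelled array).

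Complex IV was represented by 4 nuclear genes without tissue isoforms, all structural subunits around the catalytic core, and their median was 1.02. Cox5a read 1722 in the DKO-labelled array and 682 in the ApoE-KO-labelled array (2.53-fold). Cox7b read 1887 in the DKO-labelled array and 887 in the ApoE-KO-labelled array (2.13-fold). Cox5b (3284 in the DKO-labelled array and 1709 in the ApoE-KO-labelled array, 1.92-fold) and Cox6c (4512 and 2542, 1.77-fold) stayed under 2-fold.

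**Figure D3:**
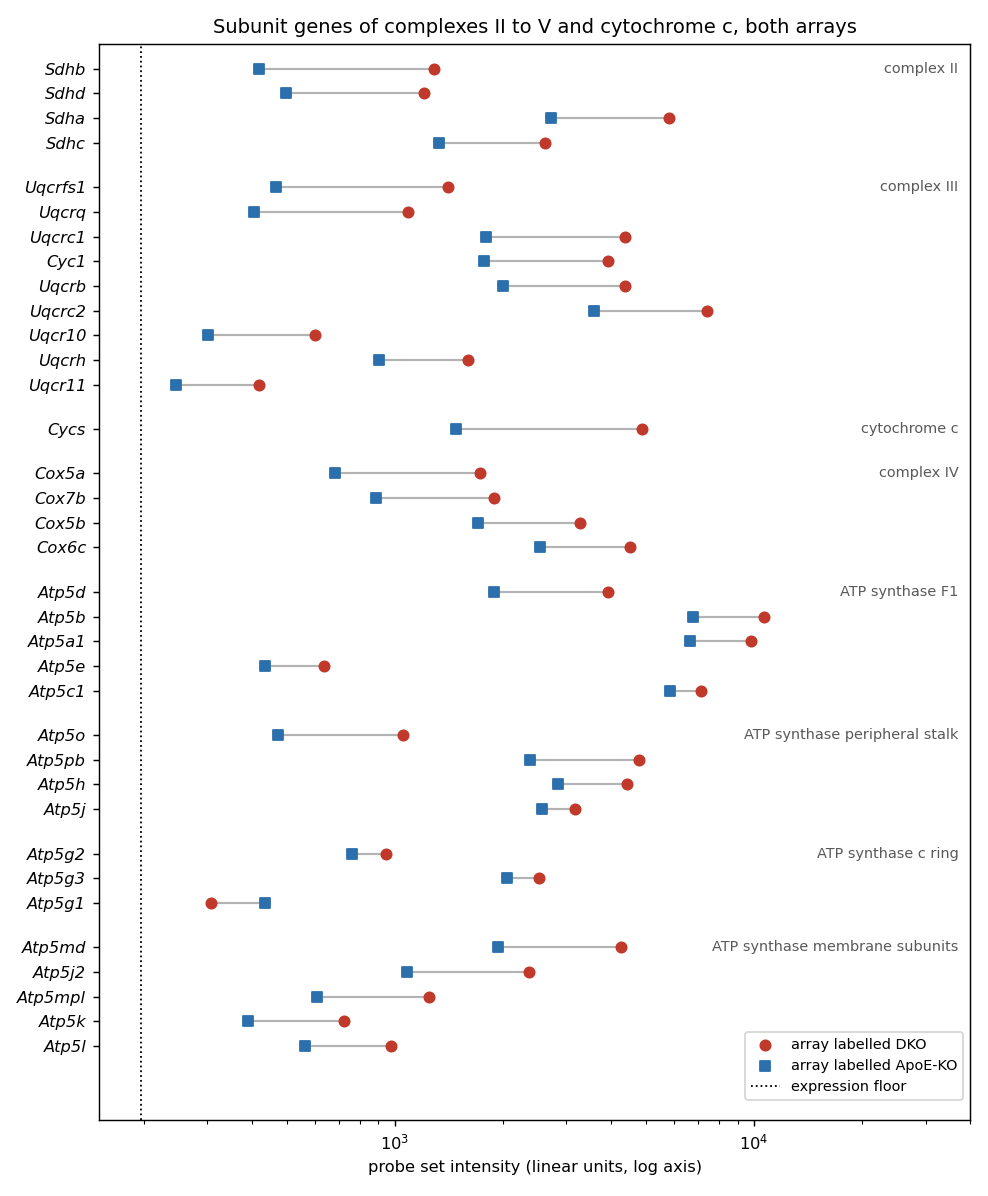
Probe set intensity (horizontal axis, linear units on a log axis) of the 35 genes in the DKO-labelled array (red circles) and in the ApoE-KO-labelled array (blue squares), ordered by complex and by difference, with the expression floor of 196.9 as a dotted line. In 34 rows the red circle lies to the right of the blue square, and in the Atp5g1 row it lies to the left.

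The ATP synthase is a rotary motor: the F1 head makes ATP, the ring of c subunits turns as protons pass, and a peripheral stalk holds the head still. The medians of the 17 genes differed between these parts. The F1 genes had a median of 0.57, the stalk genes 0.82, the c ring genes 0.29 and the small membrane subunits 1.03. The membrane subunits were thus near the electron-transferring complexes, and the c ring was nearest to the median of all genes.

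In the F1 head, 1 of the 5 genes was at least 2-fold higher. Atp5b, the catalytic beta subunit, read 10686 in the DKO-labelled array and 6780.2 in the ApoE-KO-labelled array (1.58-fold). Atp5a1, the alpha subunit, read 9803 in the DKO-labelled array and 6618 in the ApoE-KO-labelled array (1.48-fold). Atp5c1, the gamma subunit that turns as the central shaft, read 7112 and 5849.8 in the arrays labelled DKO and ApoE-KO (1.22-fold). The other parts of the shaft were Atp5d, the delta subunit, at 2.09-fold, and Atp5e, the epsilon subunit, at 1.46-fold.

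The peripheral stalk was split. Atp5o, the oligomycin sensitivity protein that ties the stalk to F1, read 1051 in the DKO-labelled array and 473 in the ApoE-KO-labelled array (2.22-fold). Atp5pb, subunit b, was 2.01-fold higher by its brighter probe set. By its other probe set it stood at 0.89 on the log2 scale, under 2-fold. Atp5h, subunit d, was 1.55-fold higher, and Atp5j, coupling factor 6, read 3167 and 2564 in the arrays labelled DKO and ApoE-KO (1.24-fold). Of the small membrane subunits that help the enzyme form dimers, Atp5md (2.20-fold), Atp5j2 (2.18-fold) and Atp5mpl (2.04-fold) were at least 2-fold higher, and Atp5k (1.85-fold) and Atp5l (1.74-fold) were not.

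The c ring held the 1 member that was lower. Its subunit is made from 3 genes, Atp5g1, Atp5g2 and Atp5g3, whose precursors differ in the targeting peptide and give the same mature protein. Atp5g3 read 2519.6 in the DKO-labelled array and 2054 in the ApoE-KO-labelled array (1.23-fold). Atp5g2 read 946 in the DKO-labelled array and 761 in the ApoE-KO-labelled array (1.24-fold). Atp5g1 read 308 in the DKO-labelled array and 435 in the ApoE-KO-labelled array, a log2 difference of -0.50, while Atp5g2 and Atp5g3 had differences like those of Atp5j (0.30) of the stalk and Atp5c1 (0.28) of F1. Atp5g1 lay at percentile 5.56 of all genes above the floor, where Atp5g2 lay at 82.9 and Atp5g3 at 81.7. Both probe sets of Atp5g1 were lower (-0.50 and -0.46). As background, Atp5g1 is the subunit c gene whose low expression in brown fat of mice has been tied to the low amount of ATP synthase there. Without the 3 subunit c genes, the median of the other 32 members was 1.04.

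Skeletal muscle RNA moved with the genotype labels. All 20 muscle markers were lower in the DKO-labelled array, 18 of the 19 above the floor at least 2-fold, with a median of -3.98. Their intensities ran from 59.7 to 1142 in the DKO-labelled array and from 437 to 5998 in the ApoE-KO-labelled array, and their sums were 4080.1 in the DKO-labelled array and 45003 in the ApoE-KO-labelled array. Skeletal muscle is itself rich in respiratory chain and ATP synthase, so the subunit genes, Atp5g1 included, were read beside more muscle RNA in the ApoE-KO-labelled array. Cox6a2, the heart and muscle form of a complex IV subunit, read 237 in the DKO-labelled array and 475 in the ApoE-KO-labelled array (a ratio of 0.499). B and T cell markers (11 of 11 lower, median -0.69), macrophage markers (7 of 8 lower, median -0.49) and fibroblast markers (8 of 8 lower, median -0.66) were also lower. The summed intensity of the B and T cell markers was 4976.6 in the DKO-labelled array and 8837 in the ApoE-KO-labelled array. The part of these cells in the subunit results was not tested, and with 1 array per genotype they cannot be told apart from genotype.

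Brown and beige adipocyte markers other than Ucp1 had a median of 1.70 over 10 genes, 6 of them at least 2-fold higher in the DKO-labelled array. The other 4 were Prdm16 (0.13), Tbx1 (-0.05), Ebf2 (-0.21) and Tmem26 (-0.23), so the median lies between 2 separate sets of values. Their summed intensity was 14264 in the DKO-labelled array and 3722 in the ApoE-KO-labelled array.

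Several genes were read more than once, which gives a check within the arrays though not between mice. Of the 35 members, 12 had several probe sets, and their differences had the same sign within each gene. In 11 of the 12 the log2 differences spanned 0.03 to 0.17, and in Cycs they spanned 0.63. RefSeq lists pseudogenes named after 7 members (Atp5c1, Atp5k, Atp5l, Atp5pb, Cox5b, Cycs and Uqcrh), and probes matching such near-identical copies cannot be assigned to the gene alone. These values are therefore uncertain to that extent. The 7 were found by name alone, and Cox6c2, which RefSeq also lists as a pseudogene, was not counted. Other members may thus be affected too. Where probe sets of a gene agree, some of them may still read such copies.

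**Figure D4:**
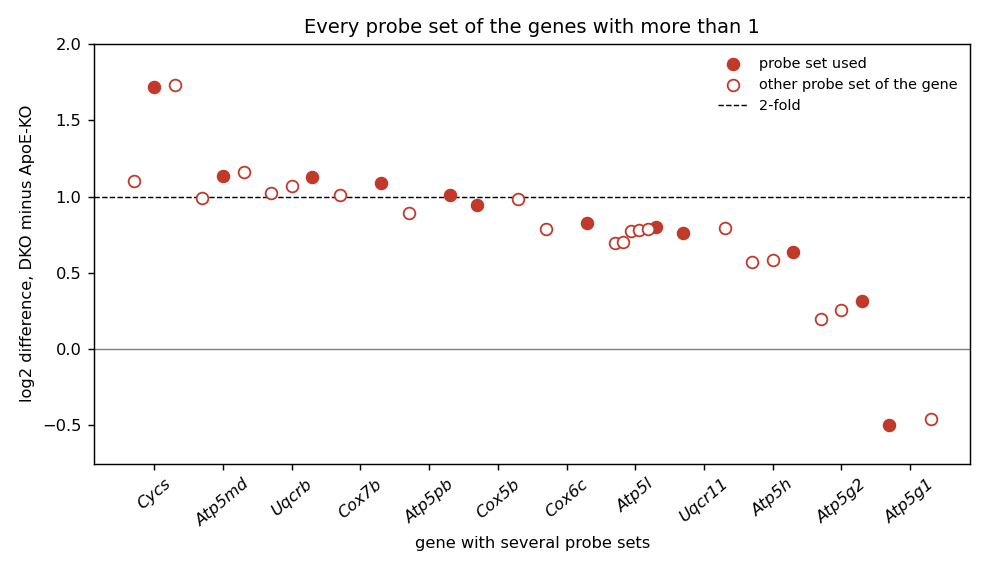
Log2 difference, DKO-labelled array minus ApoE-KO-labelled array (vertical axis), of each probe set of the 12 genes that had several (horizontal axis). Filled points are the probe sets used, which have the highest mean over both arrays, and open points are the others. Probe sets of a gene lie within 0.17 of each other except in Cycs, whose dimmest probe set lies at 1.10.

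Many calls sat close to the threshold. Between 0.9 and 1.1 on the log2 scale lay 9 members. Sdhc (0.97), Uqcr10 (0.99) and Cox5b (0.94) were just under 2-fold, and Atp5pb (1.01), Atp5mpl (1.03), Uqcrc2 (1.04), Atp5d (1.06), Sdha (1.09) and Cox7b (1.09) just over it. At 1.5-fold, 28 of the 35 were higher, beside 7.57% of all genes above the floor.

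Genes of assembly factors were also mostly higher, with no test against the subunit genes. The 18 measured assembly genes of complex IV were all higher, with a median of 0.49, and 3 were at least 2-fold higher. These were Cmc2 (1.56), Cox17, which delivers copper to the complex (1.38), and Lrpprc, which stabilises mitochondrial messenger RNA (1.01), and Taco1, a translation activator of a mitochondrial subunit, followed at 0.97. All 7 genes of complex III assembly and haem attachment were higher, with a median of 0.59, led by Uqcc1 (1.13) and Hccs, the enzyme that attaches haem to cytochromes c and c1 (1.04), with Uqcc3 at 0.59 and Ttc19 at 0.56. The 4 assembly genes of complex II had a median of 0.37, and the 2 of them above the floor were Sdhaf1 (0.37) and Sdhaf2 (0.29). Below the floor, Sdhaf4 had the largest difference of this list, with 241 in the DKO-labelled array and 101 in the ApoE-KO-labelled array (1.25), and Sdhaf3 stood at 0.37.

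For the ATP synthase, the assembly factors Atpaf2 (1.21), which acts on the alpha subunit, Tmem70 (0.97), which acts on the c ring, and Atpaf1 (0.55), which acts on the beta subunit, were higher. Atpif1, which encodes the inhibitor that stops the enzyme from running backwards, read 687 in the DKO-labelled array and 688 in the ApoE-KO-labelled array, a difference that rounds to 0.00 (-0.0031). The inhibitor gene therefore lay below every subunit gene of the enzyme except Atp5g1 (-0.50). The median of the 5 genes in this list was 0.55, or 0.76 over the 4 above the floor, beside 0.66 for the subunit genes of the enzyme.

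Complex I subunits, chosen by Nduf names and set beside the members for comparison, had a median of 1.05 over 34 genes, with 34 higher and 19 at least 2-fold. That is close to the median of the electron-transferring members (1.11) and above that of the ATP synthase (0.66), with no test of either difference. Among complex IV isoform genes, the muscle and brown fat forms Cox7a1 (3.23) and Cox8b (1.96) had the largest differences, and Cox6b1 (1.38) and Cox4i1 (1.08) were near the members. The whole list of 13 had a median of 0.54, or 1.04 over the 9 above the floor. Of the 13, 10 were higher and 3 lower, and 1 of those above the floor was at least 2-fold lower. The 12 measured genes of the tricarboxylic acid cycle had a median of 1.38 and 10 were at least 2-fold higher, led by Suclg1 (1.99) and Sucla2 (1.78), which act in the step just before succinate dehydrogenase, with Dlst at 1.45 and Idh3a at 1.44.

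**Figure D5:**
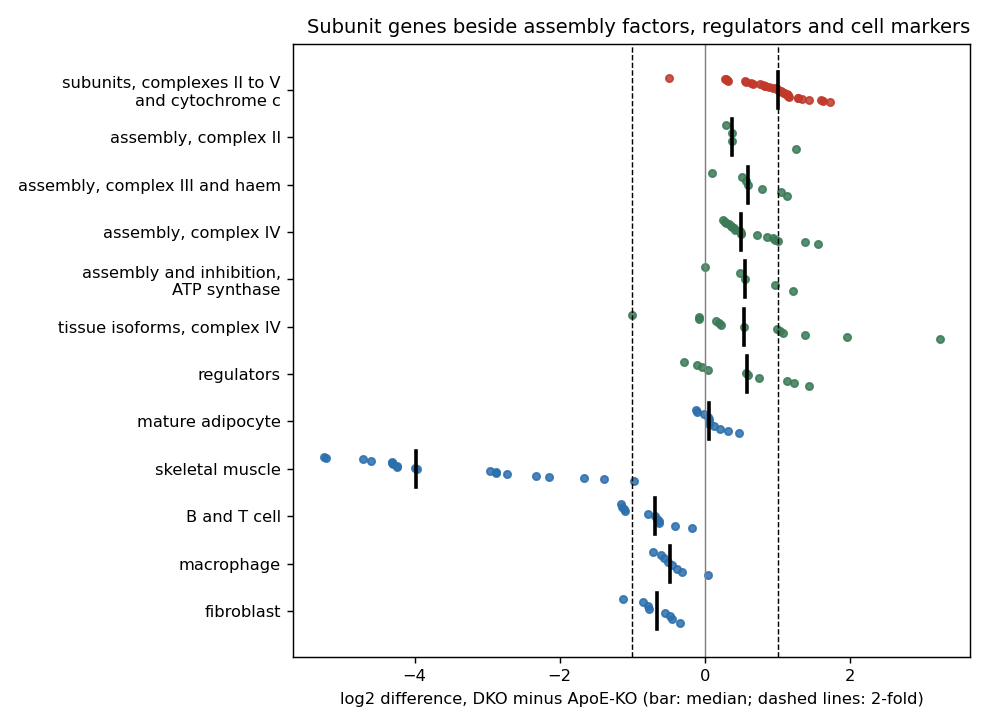
Log2 difference, DKO-labelled array minus ApoE-KO-labelled array (horizontal axis), of each gene in the lists named at the left, with black bars for medians and dashed lines at 2-fold. The median of the subunit genes (red, 1.01) lies to the right of the medians of the green lists (0.37 to 0.59). These are the assembly lists, the complex IV tissue isoforms and the regulators. It also lies to the right of the mature adipocyte markers (blue, 0.06). Single assembly genes such as Cmc2 (1.56) lie within the range of the subunits, and the skeletal muscle markers (median -3.98) lie far to the left. Lists with higher medians are not drawn: complex I (1.05), the tricarboxylic acid cycle (1.38) and brown and beige markers other than Ucp1 (1.70).

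Genes of the factors known to switch on respiratory subunit genes were read as a list of 10, with a median of 0.58 and 3 at least 2-fold higher. The coactivator genes Ppargc1a (1.44) and Ppargc1b (1.23) and the nuclear receptor gene Esrrg (1.13) were those 3, and Gabpa, an ETS factor, stood at 0.74. Nrf1, the factor named for nuclear respiratory genes, read 251 in the DKO-labelled array and 307 in the ApoE-KO-labelled array (-0.29).

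Promoter sequences are shown because members that move together are known in part to share sites for these factors, and because the 3 subunit c genes differ although their mature product is the same. RefSeq windows (GRCm38.p6) of 250 bases before to 50 after the annotated start were matched for 27 of the 35 members. The 8 others are Sdhc, Uqcrq, Cyc1, Uqcrb, Uqcrc2, Cox6c, Atp5a1 and Atp5mpl. Motifs were searched as exact letters on both strands: GCGCA, any base and GCGC for NRF1, CCGGAAG for ETS factors such as GABPA, AAGGTCA for the oestrogen-related receptors, and ATGGCGG for YY1.

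The NRF1 letters were found in 9 of 27 members (33.3%), in 5.19% of all 27025 genes with a window and in 11.8% of the 7924 genes above the floor that had one. The ETS letters were in 10 members (37.0%), in 9.93% of all genes and in 20.3% of genes above the floor. The receptor letters were in 5 members (18.5%), against 5.38% and 3.89% in those backgrounds. The YY1 letters were in 2 members (7.41%), between the 4.69% of all genes and the 9.88% of genes above the floor. These are descriptions of letters in a window, and a window without a match says only that these letters are not in it.

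The 250 bases before the start are given below 5′ to 3′ on the gene's strand, which is the minus strand in all 6 genes, with motif letters in capitals. Sdha (chr13:74350241-74350490) holds 3 NRF1 matches, which begin 98, 55 and 10 bases before the start. Sdhd (chr9:50603850-50604099) holds an NRF1 match 79 bases and an ETS match on the opposite strand 46 bases before it. Cycs (chr6:50566570-50566819), 3.29-fold higher by its brightest probe set, and Atp5g1 (chr11:96075632-96075881), the 1 member that was lower, hold no exact match in the whole window. The Cycs bases include tcgcatgcgc, 1 base away from the NRF1 letters. The exact search therefore cannot say whether these 2 genes differ in such sites. Atp5g2 (chr15:102671048-102671297) holds an NRF1 match 42 bases before the start, and Atp5g3 (chr2:73911327-73911576) a receptor match on the opposite strand 52 bases before it and an NRF1 match across or after the start, so not marked below.
Sdha: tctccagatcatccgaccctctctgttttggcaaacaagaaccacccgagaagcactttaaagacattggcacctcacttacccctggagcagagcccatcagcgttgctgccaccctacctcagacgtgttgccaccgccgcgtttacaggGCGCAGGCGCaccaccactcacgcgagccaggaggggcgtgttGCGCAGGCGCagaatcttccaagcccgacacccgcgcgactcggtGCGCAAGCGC
Sdhd: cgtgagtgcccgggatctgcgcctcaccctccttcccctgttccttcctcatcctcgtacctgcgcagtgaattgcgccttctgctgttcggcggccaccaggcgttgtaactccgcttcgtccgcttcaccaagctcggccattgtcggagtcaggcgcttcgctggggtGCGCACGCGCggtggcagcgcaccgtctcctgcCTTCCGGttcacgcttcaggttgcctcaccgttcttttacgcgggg
Cycs: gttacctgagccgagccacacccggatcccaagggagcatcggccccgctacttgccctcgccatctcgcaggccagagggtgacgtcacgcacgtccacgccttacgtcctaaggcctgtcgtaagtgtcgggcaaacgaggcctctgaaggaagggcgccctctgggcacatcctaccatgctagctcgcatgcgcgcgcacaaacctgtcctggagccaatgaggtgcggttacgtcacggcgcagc
Atp5g1: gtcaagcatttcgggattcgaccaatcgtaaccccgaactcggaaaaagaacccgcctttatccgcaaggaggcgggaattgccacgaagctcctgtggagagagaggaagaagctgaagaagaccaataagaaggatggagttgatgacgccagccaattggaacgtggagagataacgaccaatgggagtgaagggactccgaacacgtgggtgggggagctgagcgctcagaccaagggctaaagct
Atp5g2: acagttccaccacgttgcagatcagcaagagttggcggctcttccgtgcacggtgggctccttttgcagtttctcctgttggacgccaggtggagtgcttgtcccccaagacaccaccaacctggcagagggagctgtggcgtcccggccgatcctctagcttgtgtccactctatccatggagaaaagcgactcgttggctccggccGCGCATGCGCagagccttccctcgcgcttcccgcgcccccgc
Atp5g3: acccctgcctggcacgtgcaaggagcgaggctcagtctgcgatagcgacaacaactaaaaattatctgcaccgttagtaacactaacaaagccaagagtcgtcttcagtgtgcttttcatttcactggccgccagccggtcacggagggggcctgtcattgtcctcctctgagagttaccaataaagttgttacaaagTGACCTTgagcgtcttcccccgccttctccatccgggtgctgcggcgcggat

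Set beside the values, Sdha and Sdhd with NRF1 matches were 2.12-fold and 2.43-fold higher in the DKO-labelled array, whereas Atp5g2 and Atp5g3, which also hold NRF1 matches, were 1.24-fold and 1.23-fold higher. The GC content of the 6 windows before the start ran from 53.6% (Atp5g1) to 64.4% (Sdhd).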

How the data were processed

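The authors deposited a linear intensity per probe set and array. Trizol served for RNA extraction and a whole-transcript sense kit for labelling, per the labels' protocols. The sources used here do not give the scanner software, background correction, probe summarisation or scaling, and the unit was read from the values (3.55 to 23635.65, medians 152.1 for the DKO-labelled array and 157.65 for ApoE-KO). With no detection call or probe position, precision is limited by the 2 arrays. Log2 was taken with no pseudocount and the ApoE-KO-labelled array subtracted.

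Of 35557 probe sets, the platform annotation given with the data named 21789 by 1 symbol, 1621 by several and 12147 by none. A gene with several probe sets was read from the one with the highest mean. The floor was the median mean log2 intensity of named probe sets (7.62), and 9891 genes lay on or above it. Genes above it were counted at 2-fold. All members are named, with at most 4 genes from each other pathway list by size. Marker genes, and genes named beyond this rule (Cyct, Nrf1, Cox6a2, Cox7b2, Cox8a, Cox7a2l, Sdhaf3 and Sdhaf4), serve to show levels. Members, lists and motifs were chosen with earlier results of these data known, and the Nduf name rule, the promoters shown and the probe set with the lowest mean after their values were seen. The calculation was tested on simulated data with planted changes well above 2-fold, so that test does not bear on calls near 2-fold. Python 3.11.15, pandas 2.3.3 and statsmodels 0.14.6 were used. Alternatives were quantile, median and loess scaling (span 0.4), an offset of 50, other probe set rules, floors and thresholds.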

Additional observations from a re-analysis of the deposited data

Results flagged for a closer look

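Cox7c, a complex IV subunit gene that fits the naming rule, was read by 3 probe sets, each shared with Gm12338, and so entered no count. It was singled out because these probe sets carry a signal outside the values used, and it was higher in the DKO-labelled array. The brightest read 1347 in the DKO-labelled array and 874 in the ApoE-KO-labelled array, a log2 difference of 0.62, and the others gave 0.60 and 0.60.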

How the results depend on the processing

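No paired analysis was possible because each genotype has 1 array. Under 7 alternatives for scaling, offset, probe sets and floor, 235 of 245 values of single members kept their direction and their side of 2-fold, 6 fell under 2-fold, 4 passed it and 0 reversed. The changes were in Atp5pb, Atp5mpl, Atp5md, Sdhc and Uqcr10. Some of the 235 values could not move, so this share overstates the stability. Setting low intensities to the floor touched no member, since each lay above the floor in both arrays. The other probe set rules could not alter the 23 members with 1 probe set. The count of 18 members at least 2-fold higher ran from 15 to 20 under other scalings, probe sets and floors, and thresholds of 1.5-fold and 3-fold gave 28 and 3 by construction. For all genes these thresholds gave 749 and 52 in place of 276 higher, and 369 and 38 in place of 69 lower, and the lower count was 105 with no floor and 26 with the floor at percentile 75. The median of the members ran from 0.92 (the mean in its place) to 1.06, and Atp5g1 from -0.50 to -0.44. With its dimmest probe set, a setting chosen after seeing the data, Cycs stood at 1.10 in place of 1.72. As the mean of its probe sets it stood at 1.52 and lost the first rank among members to Sdhb (1.62). The YY1 share of members was 2.72 percentage points above all genes and -2.47 points against genes above the floor. Leaving out Atp5s and Atp5sl was not run, since the annotation names them Dmac2l and Dmac2. Leaving out an array was not possible.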

Other observations

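Dmac2l and Dmac2, once named Atp5s and Atp5sl after the ATP synthase though they are not subunits of it, read 240.2 and 629 in the DKO-labelled array and 187 and 474 in the ApoE-KO-labelled array. Their log2 differences were 0.36 and 0.41, each under the median of the ATP synthase genes (0.66). Cox7b2, a relative of Cox7b, was dim in both arrays, with 19.6 in the DKO-labelled array and 16.7 in the ApoE-KO-labelled array.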
